A study of Mus musculus with 12 samples.

Results

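The genes of the phagocyte NADPH oxidase were followed through bulk RNA-seq read counts of mouse bone marrow neutrophils. The set was defined by function, though earlier results of these data were known when it was chosen. It holds Cybb and Cyba, the membrane subunits, and Ncf1 and Ncf4, the cytosolic subunits. The other members are Rac1 and Rac2, the GTPase partners, and Hvcn1, the voltage-gated proton channel. Each symbol was matched to its identifier in the count table, which gave 7 of 7 members among 37310 genes. All 7 passed the filter on low counts, as did 12917 genes in all.

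The study had 4 groups of 3 libraries, from mice of strain C57BL/6: Control with vehicle, Control with lipopolysaccharide (LPS), Runx1KO with vehicle and Runx1KO with LPS. LPS, a cell wall component of bacteria that is sensed through Toll-like receptor 4, was given at 100 ng/mL for 2 h, and the vehicle groups were kept for the same time. Cells of every group had been sorted for CD11b and Ly6G and against Siglec F and the macrophage antigen encoded by Adgre1. Runx1KO cells lack the blood cell transcription factor Runx1; the labels give neither the allele, the deleted part nor any Cre driver. The design text of the series describes the Control material otherwise, as LKS- marrow cells pooled from a Runx1f/f mouse and a Runx1f/- mouse that carries a germline mutation on 1 allele, and the labels do not settle which description holds. The labels do not say that the 3 libraries of a group came from separate animals, and p-values therefore describe only how far these libraries spread; the sex-linked reads given below separate library 2 from libraries 1 and 3 of each group, while a technical source of the spread from 1 to 3 is possible.

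The oxidase moves electrons from NADPH across the membrane of the phagosome onto oxygen and so makes superoxide, from which neutrophils form the oxidants that kill microbes. In the resting cell the flavocytochrome, a pair of the glycoprotein encoded by Cybb and the smaller subunit encoded by Cyba, sits in membranes apart from the cytosolic subunits. After phosphorylation the cytosolic complex moves to the membrane, and a Rac protein loaded with GTP completes the enzyme. The proton channel carries out the charge that electron transfer leaves behind. Loss of a core subunit causes chronic granulomatous disease.

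Levels below are CPM, which put each library on the same total after TMM correction of its size, listed for the libraries numbered 1, 2 and 3 in that order. Total counts ranged from 19023610 to 26225169. The sorted identity was borne by the neutrophil markers: the 10 listed genes summed to between 97390 and 147700 CPM in every library and were led by S100a8 and S100a9. Progenitor markers summed to 30.5 to 91.4 CPM in Control vehicle and 23.3 to 66.1 CPM in Control LPS. In Runx1KO they summed to 42.45 to 101.9 CPM with vehicle and 49.6 to 117 CPM with LPS. Of 8 progenitor genes tested, 7 had positive log2 fold changes of Runx1KO against Control with vehicle (median 0.46). With LPS 8 were positive (median 0.90), and 0 were called in either comparison. Adgre1 itself was counted at 15.5, 74.9 and 16.4 CPM in Control vehicle, 16.4, 121.5 and 206.9 CPM in Control LPS, 24.8, 222.6 and 47.4 CPM in Runx1KO vehicle and 20.1, 318 and 1220 CPM in Runx1KO LPS, although the sort was against its antigen. Runx1 reads were counted in all libraries, at 36.8 to 56.2 CPM in Control vehicle and 60.5 to 75.4 CPM in Runx1KO vehicle, 1.55-fold higher without overlap (edgeR adjusted p = 0.656). With LPS they were at 26.1 to 50.9 and 43.7 to 68.6 CPM. The direction is opposite to a loss of transcript, and since the deleted part is not known these counts do not check the genotype labels. The libraries numbered 2 held 0 reads of Xist in each group and 262 to 379 CPM of Y-linked genes, while those numbered 1 and 3 held 42.4 to 65.7 CPM of Xist; Cybb lies on the X chromosome.

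The libraries numbered 3 stood apart in genes that answer LPS. Tnf, the cytokine tumour necrosis factor, was at 1281, 594 and 28.2 CPM in Control vehicle, 1898, 1264 and 1927 CPM in Control LPS, 1419, 1184 and 73.0 CPM in Runx1KO vehicle and 488, 2866 and 8859 CPM in Runx1KO LPS. Nfkbia, the inhibitor that NF-kB induces, was at 3517, 3411 and 217 CPM in Control vehicle and 4975, 4906 and 4143 CPM in Control LPS. Its Runx1KO levels were 3796, 4607 and 397 CPM for vehicle, then 4191, 6955 and 7992 CPM for LPS. In both genotypes vehicle libraries 1 and 2 thus held far more of both transcripts than vehicle library 3, and their Nfkbia lay close to or within the range of the LPS libraries. The log2 fold change of LPS was 1.42 (SE 1.22) for Tnf and 0.97 (SE 0.88) for Nfkbia in Control, with an edgeR adjusted p of 1 for both. In Runx1KO it was 2.19 (SE 1.25, adjusted p = 0.873) for Tnf and 1.12 (SE 0.88, adjusted p = 0.883) for Nfkbia.

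The promoter of Cybb is shown because Runx1 is the deleted factor and, of the members with a sequence, Cybb alone held a RUNX core motif in the window searched. Promoter sequences were found in RefSeq (GRCm38.p6) for 3 of the 7 members, Cybb, Cyba and Ncf1. The sequence is the 250 bases before the start of the gene, chrX:9469325-9469574, minus strand, 5′ to 3′, with the matches in capitals.
Cybb promoter: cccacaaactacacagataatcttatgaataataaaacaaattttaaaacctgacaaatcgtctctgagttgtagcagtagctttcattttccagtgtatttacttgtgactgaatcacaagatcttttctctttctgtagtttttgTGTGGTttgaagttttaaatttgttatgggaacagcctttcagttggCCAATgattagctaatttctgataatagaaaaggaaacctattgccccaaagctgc
The 3 motifs searched, on both strands, were TGTGGT (RUNX), GAGGAA (PU.1, the product of Spi1) and CCAAT (the CCAAT box). Only these exact strings were searched, so a motif that is not found does not exclude a variant site. TGTGGT was found 103 to 98 bases and CCAAT 56 to 52 bases before the start, both on the strand of the gene and without overlap. The windows of Cyba and Ncf1 held none of the 3 motifs. Of all 32851 promoters of the same length, 14% held TGTGGT, 23.3% GAGGAA and 33.8% CCAAT. A match of these letters describes the sequence and shows no binding.

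The ends of the coding sequences of Rac1 and Rac2 are shown because the counts of these 2 paralogs can be told apart only where their sequences differ. The last 60 coding bases, positions 520 to 579 of the transcripts Rac1-201 and Rac2-201 (GENCODE M21), are given with the 28 differing bases in capitals.
Rac1: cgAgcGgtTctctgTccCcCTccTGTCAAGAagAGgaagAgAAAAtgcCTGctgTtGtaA
Rac2: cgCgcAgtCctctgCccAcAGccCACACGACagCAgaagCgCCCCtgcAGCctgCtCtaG
Over all 579 coding bases 133 differed, an identity of 77%, and the longest stretch shared without a difference was 29 bases, at the 5′ end of the coding sequence. The 3′ end, shown here, encodes the basic tail by which the proteins attach to membranes.

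All members but Hvcn1 were abundant. Per kilobase of merged exon (GENCODE M21 lengths, which are not those of the authors' build), Ncf1 averaged 1077, Cyba 965 and Rac2 871 CPM per kb over the 12 libraries, and these 3 exchanged ranks between libraries. Cybb at 336 and Ncf4 at 265 CPM per kb took the next ranks, also in changing order. Rac1 had rank 6 in every library at a mean of 70.2 CPM per kb. Hvcn1 had rank 7 in every library at 5.72 CPM per kb. Neighbours within the first 3 and between Cybb and Ncf4 therefore did not differ beyond the spread of the libraries.

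**Figure D1:**
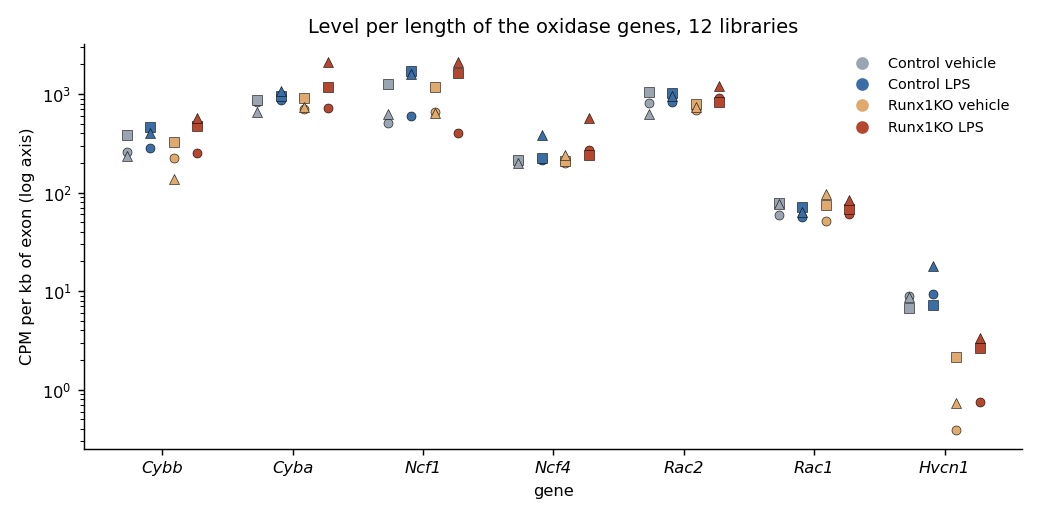
Level per length of the 7 genes in each of 12 libraries, as CPM per kb of exon on a log axis, with colours for the groups and marker shapes for the library numbers 1 (circle), 2 (square) and 3 (triangle). Cyba, Ncf1 and Rac2 hold the first 3 ranks in all libraries, and Hvcn1 is lowest in all and lower in Runx1KO.

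The ratio between partners was not the same in all libraries. Rac2, the form of Rac restricted to blood cells, exceeded the widely expressed Rac1 per length by 7.62 to 15 times (median 13.5). The ratio was lowest in the vehicle libraries numbered 3, at 8.23 in Control and 7.62 in Runx1KO. Cyba exceeded Cybb per length by 2.04 to 5.37 times (median 2.82), although their proteins pair in equal number. The ratio of Ncf1 to Ncf4 ranged from 1.49 to 7.51 (median 3.49), low in Runx1KO LPS 1 and high in Control LPS 2. From the lowest to the highest library, Rac1 varied 1.86-fold, Rac2 1.92-fold, Ncf4 2.84-fold, Cyba 3.22-fold, Cybb 4.13-fold, Ncf1 5.19-fold and Hvcn1 46.1-fold.

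**Figure D2:**
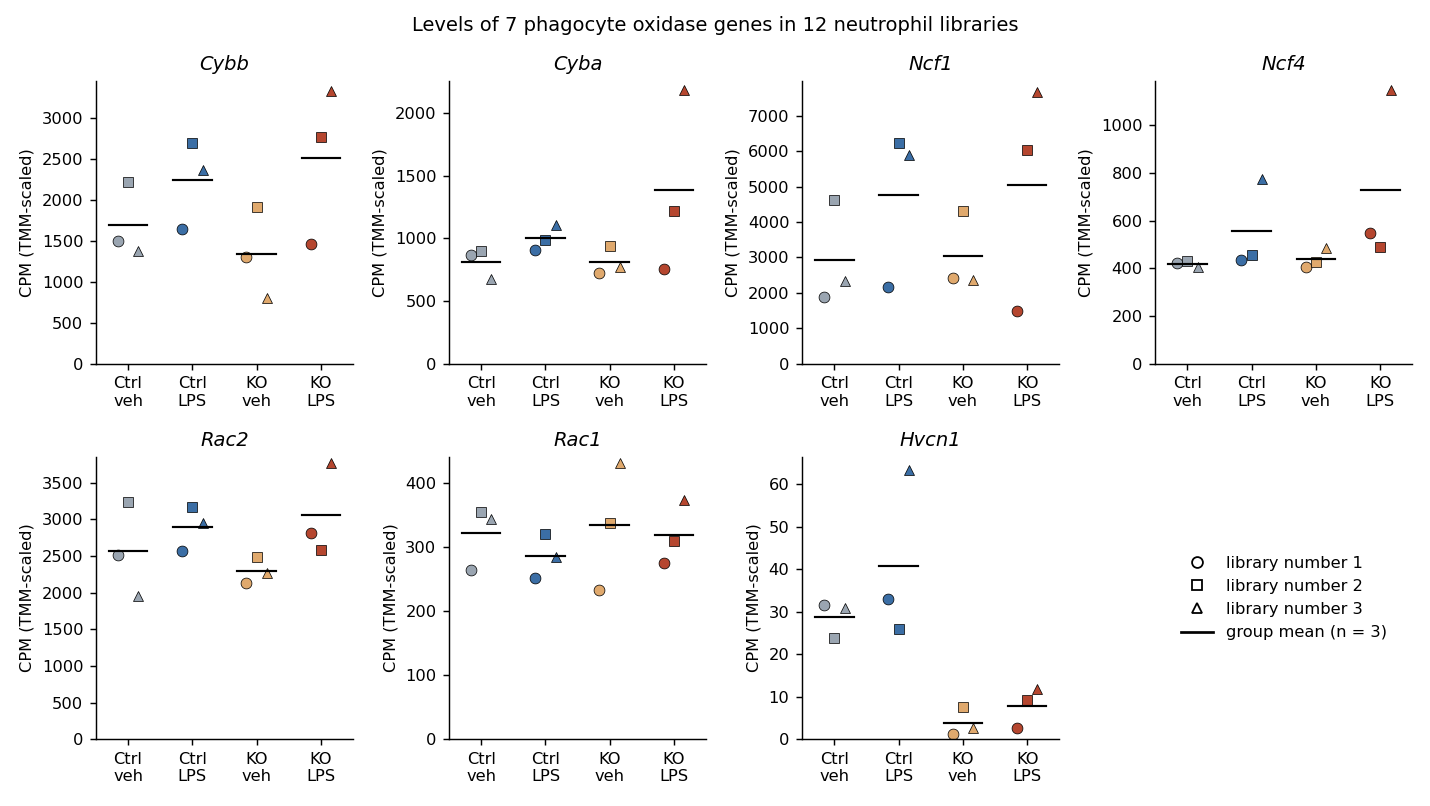
Level of each of the 7 genes in CPM (vertical axes, each from 0) in the 3 libraries of each group, with marker shapes for library numbers and a bar at the group mean (n = 3). Runx1KO LPS 3 is the highest library for Cybb, Cyba, Ncf1, Ncf4 and Rac2, and Hvcn1 separates the genotypes without overlap.

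The membrane subunits are described first. Cybb (ENSMUSG00000015340.4, chromosome X), which encodes the electron-transferring glycoprotein, was at 1500, 2219 and 1379 CPM in Control vehicle and 1650, 2696 and 2366 CPM in Control LPS. The Runx1KO libraries had 1299, 1916 and 806 CPM under vehicle and, under LPS, 1456, 2768 and 3325 CPM. All groups overlapped, and the lowest and the highest library were both Runx1KO libraries numbered 3. Cyba (ENSMUSG00000006519.9, chromosome 8), which encodes the partner that stabilises this glycoprotein, was at 864, 899 and 677 CPM in Control vehicle and 904, 984 and 1109 CPM in Control LPS. The Control groups did not overlap, though the gap between them was small. In Runx1KO Cyba was at 727, 939 and 775 CPM under vehicle and, under LPS, at 752, 1216 and 2179 CPM, with overlap.

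Of the cytosolic subunits, Ncf1 (ENSMUSG00000015950.6, chromosome 5), the organizer that is phosphorylated on activation, was at 1875, 4607 and 2320 CPM in Control vehicle and 2178, 6240 and 5896 CPM in Control LPS. Runx1KO cells had 2421, 4308 and 2357 CPM under vehicle and, under LPS, 1476, 6017 and 7667 CPM, so that library 1 was lower with LPS than with vehicle. Ncf4 (ENSMUSG00000071715.5, chromosome 15), whose product binds a phosphoinositide of the phagosome membrane, was the most even of the members in Control vehicle, at 421, 431 and 408 CPM. It was at 436, 458 and 774 CPM in Control LPS, 405, 426 and 485 CPM in Runx1KO vehicle and 548, 489 and 1149 CPM in Runx1KO LPS. In both genotypes its LPS libraries lay above all vehicle libraries, narrowly so in libraries 1 and 2 of Control and in library 2 of Runx1KO.

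Rac2 (ENSMUSG00000033220.6, chromosome 15) was at 2509, 3232 and 1958 CPM in Control vehicle and 2562, 3163 and 2947 CPM in Control LPS. In Runx1KO it was at 2136, 2489 and 2272 CPM under vehicle and, under LPS, at 2816, 2586 and 3763 CPM, where the groups did not overlap. Rac1 (ENSMUSG00000001847.8, chromosome 5) was at 266, 356 and 345 CPM in Control vehicle and 253, 321 and 285 CPM in Control LPS. With 233, 339 and 432 CPM in Runx1KO vehicle and 275, 310 and 375 CPM in Runx1KO LPS, its groups overlapped throughout. Rac1 was thus the member with the smallest range over the 12 libraries.

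Hvcn1 (ENSMUSG00000064267.7, chromosome 5), whose channel opens as the membrane depolarises during the burst, was at 31.7, 23.8 and 31.0 CPM in Control vehicle and 33.1, 26.1 and 63.4 CPM in Control LPS. In Runx1KO it was at 1.38, 7.58 and 2.63 CPM under vehicle and, under LPS, at 2.70, 9.34 and 11.9 CPM. These levels rest on 34, 171 and 75 reads and on 63, 208 and 211 reads, against 515 to 1347 reads in the Control libraries. Every Runx1KO library was below every Control library, and Runx1KO libraries 2 were above libraries 1 in both treatments.

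Control neutrophils with and without LPS were compared first. Levels were higher on average for 6 of the 7 genes, by 1.13-fold for Rac2 up to 1.63-fold for Ncf1, and none passed the test. The log2 fold change was 0.40 for Cybb (SE 0.40), 0.30 for Cyba (SE 0.35), 0.70 for Ncf1 (SE 0.59), 0.40 for Ncf4 (SE 0.35), 0.17 for Rac2 (SE 0.27) and 0.50 for Hvcn1 (SE 0.61). That of Rac1 was −0.17 (SE 0.27). The median over the 7 genes was 0.40, beside −0.020 over all genes tested, of which 46.3% were positive. Groups that did not overlap, with LPS higher, were found for 2 of 7 members, Cyba and Ncf4, and for 2.84% of all genes.

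By edgeR's quasi-likelihood test with Benjamini-Hochberg adjustment 0 of the 7 members were called, each with an adjusted p of 1, and 0% of the 12917 genes. At an unadjusted p under 0.05 there were 78 genes and no member, and DESeq2 and limma-voom also called 0 genes. The 95% intervals of the log2 fold change still held −0.47 to 1.26 for Cybb and −0.59 to 1.99 for Ncf1, which for Cybb is 0.724-fold to 2.395-fold.

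The same comparison in Runx1KO gave larger values for the same 6 genes. The log2 fold change was 0.91 for Cybb (SE 0.40), 0.76 for Cyba (SE 0.35), 0.74 for Ncf1 (SE 0.59), 0.73 for Ncf4 (SE 0.35), 0.41 for Rac2 (SE 0.27) and 1.05 for Hvcn1 (SE 0.62), and −0.064 for Rac1 (SE 0.27). Mean levels went from 1341 ± 556 to 2516 ± 960 CPM for Cybb and from 814 ± 111 to 1383 ± 728 CPM for Cyba (SD, n = 3). The median over the members was 0.74, beside 0.028 over all genes, of which 52.6% were positive. Ncf4 and Rac2 did not overlap between the groups, with LPS higher, as did 3.51% of all genes.

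None of these passed: the edgeR adjusted p was 0.873 for Cybb, Cyba, Ncf4, Rac2 and Hvcn1, 0.884 for Ncf1 and 0.994 for Rac1, and 0% of all genes were called. Before adjustment Cybb and Cyba were among the 676 genes of this fit under 0.05. DESeq2 called 1 gene, which was no member, and limma-voom 0.

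**Figure D3:**
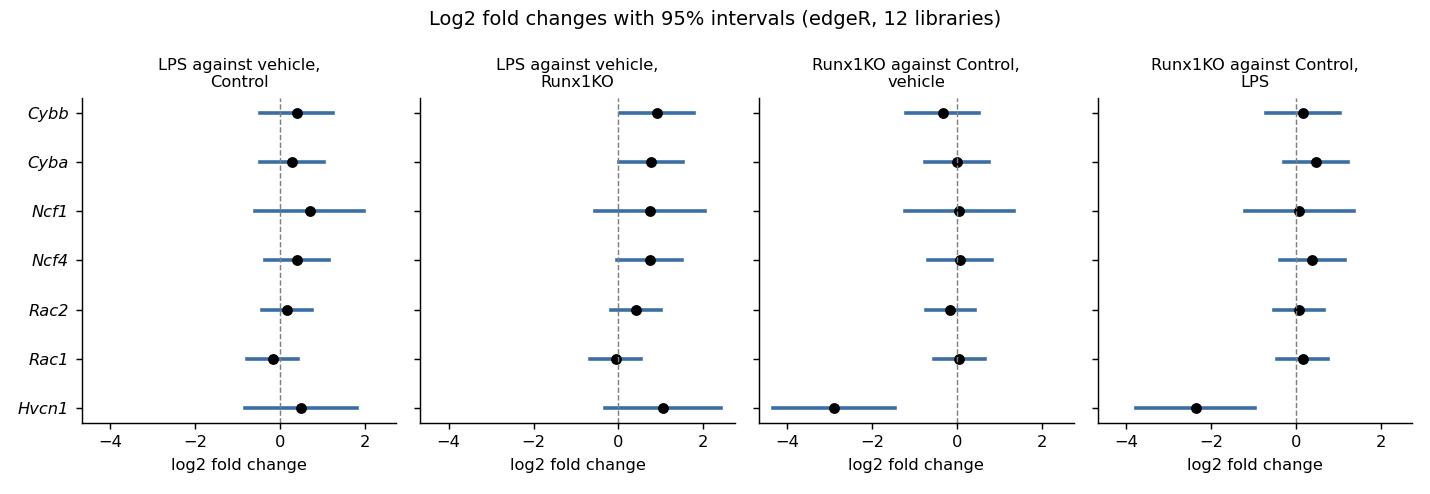
Log2 fold changes of the 7 genes in 4 comparisons (horizontal axes), with points for the edgeR estimates and bars for their 95% intervals. Only for Hvcn1 in both comparisons of the genotypes does the interval lie far from 0, at −4.33 to −1.47 with vehicle and −3.75 to −0.97 with LPS; those of Cybb and Cyba in the Runx1KO response to LPS end just above 0.

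The size of the response went with the library number. In the Control libraries numbered 3, LPS minus vehicle was 0.78 log2 for Cybb, 0.71 for Cyba, 1.35 for Ncf1, 0.92 for Ncf4, 0.59 for Rac2 and 1.03 for Hvcn1. In those numbered 1 and 2 no member exceeded 0.44 log2. In Runx1KO the pair numbered 3 differed by 2.04 for Cybb, 1.49 for Cyba, 1.70 for Ncf1, 1.25 for Ncf4, 0.73 for Rac2 and 2.14 for Hvcn1.

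The pair numbered 1 of Runx1KO, in which Tnf was also lower with LPS, differed by 0.16 for Cybb, 0.049 for Cyba, −0.71 for Ncf1, 0.44 for Ncf4, 0.40 for Rac2 and 0.93 for Hvcn1. The pair numbered 2 differed by 0.53 for Cybb, 0.37 for Cyba, 0.48 for Ncf1, 0.20 for Ncf4, 0.055 for Rac2 and 0.30 for Hvcn1. Without the 4 libraries numbered 3, the fitted log2 fold change in Runx1KO was 0.37 for Cybb, 0.22 for Cyba, 0.14 for Ncf1, 0.29 for Ncf4, 0.20 for Rac2 and 0.41 for Hvcn1. In Control it was 0.23 for Cybb, 0.11 for Cyba, 0.39 for Ncf1, 0.076 for Ncf4, 0.0033 for Rac2 and 0.097 for Hvcn1. All 6 genes were closer to 0 without those libraries. That follows from the choice left out, since the pair numbered 3 had the largest difference for each of them in both genotypes. The part that the high Tnf and Nfkbia of vehicle libraries 1 and 2 had in the size of the response was not tested.

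**Figure D4:**
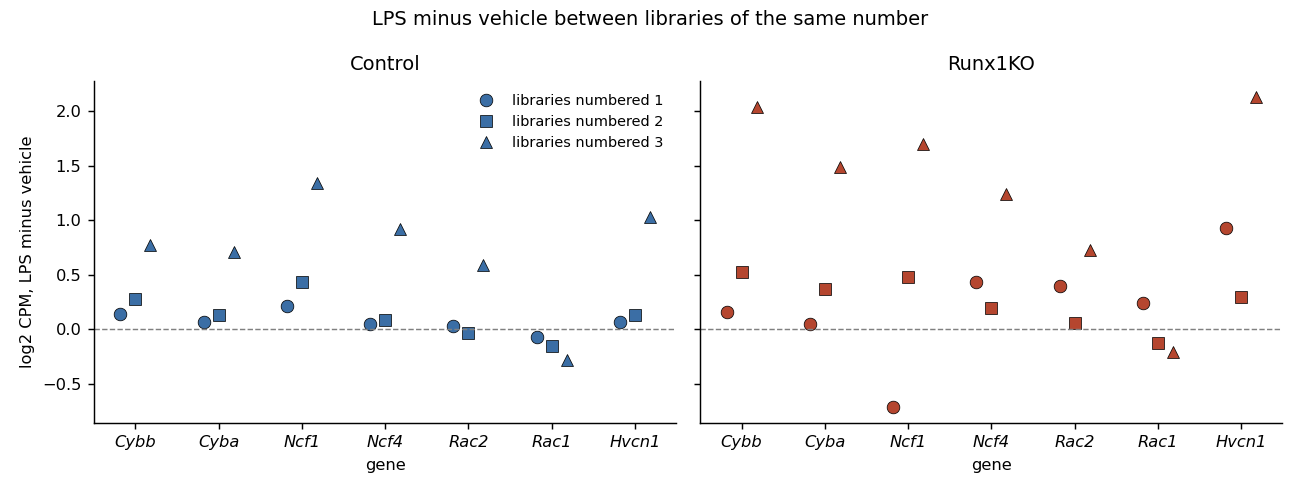
Difference in log2 CPM between the LPS and the vehicle library of the same number (vertical axis) for the 7 genes, Control on the left and Runx1KO on the right. Triangles, the libraries numbered 3, are highest for Cybb, Cyba, Ncf1, Ncf4, Rac2 and Hvcn1 in both genotypes and lowest for Rac1.

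The difference of the responses, Runx1KO minus Control, was positive for 7 of 7 members and was called for 0. It was 0.51 log2 for Cybb (SE 0.56), 0.47 for Cyba (SE 0.49), 0.33 for Ncf4 (SE 0.49), 0.24 for Rac2 (SE 0.38), 0.54 for Hvcn1 (SE 0.86), 0.11 for Rac1 (SE 0.39) and 0.037 for Ncf1 (SE 0.83), each with an edgeR adjusted p of 1. With library size alone as scaling the sign turned for Ncf1 (−0.27), Rac1 (−0.13) and Rac2 (−5.7e-05). The median of the members was 0.33 and that of all genes 0.048, with 55.1% of all genes positive and 0% called; 77 genes had an unadjusted p under 0.05, and DESeq2 and limma-voom called 0.

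The comparison of the genotypes with vehicle asked whether the oxidase genes differ before LPS. Hvcn1 was the member that stood apart: its mean was 28.8 ± 4.34 CPM in Control and 3.86 ± 3.28 CPM in Runx1KO (SD, n = 3), 7.48-fold lower, with a log2 fold change of −2.90 (SE 0.66, 95% interval −4.33 to −1.47). It missed the threshold by edgeR (adjusted p = 0.068, rank 160 of 12917 by p). With the library number as a block, which the pairing of the libraries allows, it passed (−3.12, adjusted p = 0.0294), as it did by DESeq2 (adjusted p = 5.44e-04), by limma-voom (0.0345), without the filter (0.0143) and with library size alone (0.0473).

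Leaving out Runx1KO vehicle 2, its highest Runx1KO vehicle library, gave −3.84 (edgeR adjusted p = 0.0359), and leaving out Runx1KO LPS 1 gave −2.90 (0.0316); the other leave-outs ended between 0.0723 and 0.483. Its groups did not overlap, with Runx1KO lower, which held for 7.82% of all genes. The differences between libraries of the same number were −4.44, −1.64 and −3.52 log2.

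The other 6 members lay between −0.34 and 0.063 log2: Cybb at −0.34 (SE 0.40), Rac2 at −0.16 (SE 0.27), Cyba at 6.7e-04 (SE 0.34), Ncf1 at 0.046 (SE 0.59), Rac1 at 0.055 (SE 0.27) and Ncf4 at 0.063 (SE 0.35), each with an edgeR adjusted p of 1 and with overlapping groups. Their intervals do not show equal levels: that of Rac1 ran from −0.54 to 0.65 and that of Ncf1 from −1.24 to 1.33. Of the members 0 were called, against 0.952% of all genes (123, of which 45, or 0.348%, were higher and 78, or 0.604%, lower; 45 and 50 with library size alone; 315 in all with the block and 386 by DESeq2).

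With LPS the picture was similar. Hvcn1 averaged 40.9 ± 19.8 CPM in Control and 7.97 ± 4.73 CPM in Runx1KO, 5.14-fold lower (−2.36 log2, SE 0.64, 95% interval −3.75 to −0.97, edgeR adjusted p = 0.146, rank 275). It passed by DESeq2 (adjusted p = 0.0111) and without the filter (0.0483), and it missed with the block (0.0608), by limma-voom (0.0869) and in every leave-out. Its groups did not overlap, as in 6.76% of all genes with Runx1KO lower, and the same-number differences were −3.58, −1.47 and −2.41 log2.

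Cyba (0.47, SE 0.35, adjusted p = 0.747) and Ncf4 (0.39, SE 0.35, adjusted p = 0.820) had the largest positive values with LPS, and both turned to −0.025 and −0.10 without Runx1KO LPS 3. Cybb was at 0.17, Rac1 at 0.16, Ncf1 at 0.083 and Rac2 at 0.080 log2, with edgeR adjusted p values from 0.931 to 0.988; with library size alone Cybb, Ncf1 and Rac2 turned to −0.0082, −0.13 and −0.061. Of the members 0 were called, against 0.921% of all genes (119, of which 45, or 0.348%, were higher and 74, or 0.573%, lower; 302 in all with the block). Both genotype comparisons and both LPS comparisons share libraries in pairs, so they are not independent of each other.

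Some markers of other cells were lower in Runx1KO libraries, as Hvcn1 was, and others were not. Hvcn1 is also expressed by B lymphocytes, and the 6 B lineage genes summed to 18.1 to 34.1 CPM in Control vehicle and 21.4 to 49.8 CPM in Control LPS, against 7.49 to 11 and 10.2 to 15.7 CPM in Runx1KO. Ms4a1, the B cell surface protein CD20, was called lower in both treatments. It was at 0 reads in Runx1KO vehicle, while Cd79a stayed at 4.33 to 10.6 CPM in Runx1KO. The highest library of the B lineage sum, Control LPS 3 at 49.8 CPM, was also that of Hvcn1. Within Control LPS (B lineage sums of 29.3, 21.4 and 49.8 CPM) and Runx1KO LPS (10.2, 12.7 and 15.7 CPM) the libraries stood in the same order for both. In Control vehicle library 2 was the lowest for both. In Runx1KO vehicle the order differed, as library 2 held the highest Hvcn1 (7.58 CPM) and the lowest B lineage sum (7.49 CPM).

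The 6 T and NK cell genes summed to 35.2 to 55.0 CPM in Control and 4.94 to 9.57 CPM in Runx1KO, where Cd3d was the 1 member called lower in each comparison. Cd3d made up most of the Control sum, at a mean of 38.5 CPM with vehicle against 2.40 CPM in Runx1KO, while Nkg7 averaged 3.44 and 3.73 CPM. Monocyte and macrophage genes summed to 1457 to 2023 CPM in Control and 748 to 2998 CPM in Runx1KO, with 0 members called. Their median log2 fold change between genotypes was −0.0040 with vehicle and 0.73 with LPS. Ly6c2 alone made up most of the sum in every Control library. In Runx1KO LPS 3, the library with the highest sum, Adgre1 was at 1220, Ly6c2 at 969 and Csf1r at 741 CPM. Mertk was at 0 reads in Runx1KO LPS, and Ly6c2 was at 1253 to 1481 CPM in Control and 519 to 969 CPM in Runx1KO. Positive values were found for Ccr2 (1.34 with vehicle and 2.48 with LPS), F13a1 (1.40 and 1.62), Csf1r (0.86 and 0.73) and Adgre1 (1.46 and 2.18). The sorting antigen gene Ly6g was lower in Runx1KO vehicle too, at 106, 154 and 152 CPM against 418, 418 and 381 CPM (edgeR adjusted p = 0.0521). Of the 10 neutrophil genes, 2 had positive values between genotypes with vehicle and 3 with LPS, and 0 were called. Their medians were −0.31 and −0.14 log2. Retnlg was higher in Runx1KO, by 0.53 log2 with vehicle and 0.84 log2 with LPS. Platelet genes were higher in Runx1KO, at 25.0 to 38.3 CPM in sum against 1.52 to 6.42 CPM, with 3 of 5 members called with vehicle and 1 with LPS. Eosinophil genes overlapped, at 7.07 to 17.98 CPM in Control and 9.43 to 28.0 CPM in Runx1KO, and so did erythroid genes, at 143 to 621 and 104 to 1522 CPM. The part of these cells in the level of Hvcn1 was not tested, and in bulk RNA fewer cells of a type and less RNA per cell cannot be told apart.

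**Figure D5:**
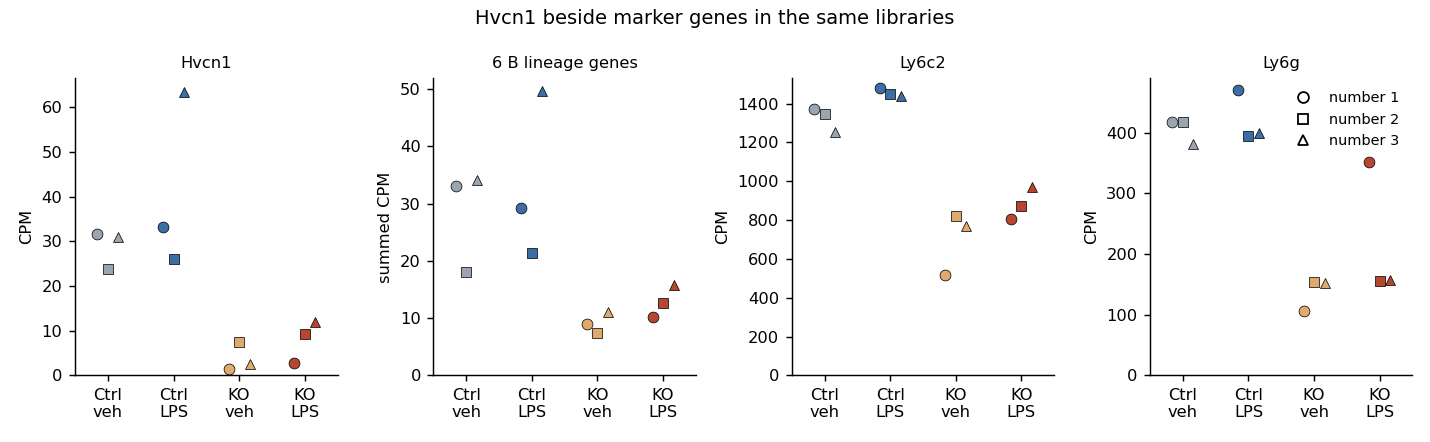
Hvcn1, the sum of 6 B lineage genes, Ly6c2 and Ly6g in CPM (vertical axes from 0) for the 3 libraries of each group, with marker shapes for library numbers. Hvcn1, the B lineage sum, Ly6c2 and Ly6g are all lower in every Runx1KO library than in every Control library of the same treatment. Ly6g in Runx1KO LPS 1, at 351 CPM, comes nearest to Control. Ly6c2 and Ly6g were picked after their values were seen. Other genes of their marker lists, such as Ccr2 and Retnlg, were higher on average in Runx1KO.

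Exons of 3 members overlap a gene on the opposite strand in GENCODE M21, and the sources used here do not give the strand setting of the counting. Tctn1 overlaps 44.2% of the exon bases of Hvcn1 and had 454 reads over all libraries, against 5367 of Hvcn1. Daglb overlaps 51.4% of those of Rac1, with 3677 against 86548 reads. Gtf2ird2 overlaps 11.1% of those of Ncf1, with 21180 against 1035958 reads, and a transcript of it matches 304 coding bases of Ncf1 at 87.2% identity. A transcript of Tctn1 matches 234 coding bases of Hvcn1 at 100% identity, and Hvcn1 in Runx1KO vehicle rests on 34, 171 and 75 reads. Whether reads of these neighbours were told apart by strand is not known. Processed copies of Rac1 also exist, 1 of which, Gm45522, matches 165 bases at 94.5% identity, so the counts of Rac1 are uncertain to that extent.

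The genes whose log2 CPM followed each member most closely over the 12 libraries were found among 7611 genes with a symbol and a mean log2 CPM of at least 2. They are descriptions of libraries that share depth, group and number. Hp, the haptoglobin gene, was close to Cybb (Pearson r = 0.974), behind Plk4 (0.979) and ahead of Gm14005 (0.969). Bri3 (0.969), Ssu72 (0.968) and Camkk2 (0.960) were closest to Cyba. Icosl, the ligand of a T cell costimulator, was closest to Ncf1 (0.990), then Ino80d (0.986) and Kbtbd7 (0.984). Krcc1 (0.967), Gm10093 (0.966) and the lysosomal protease gene Tpp1 (0.962) were closest to Ncf4.

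Rac2 had looser companions, the leukocyte actin-binding protein gene Lsp1 (0.914), Apobec3 (0.900) and the granule protein gene Lcn2 (0.887). Bloc1s3 (0.970), the kinase gene Csk (0.943) and Atxn7l3b (0.937) were closest to Rac1. Smim3 (0.960), the orphan receptor gene Gpr141 (0.956) and Ly6c2 (0.950) were closest to Hvcn1. None of these genes was another member. Between members, r over the 12 libraries was 0.833 for Cybb with Ncf1, 0.830 for Cyba with Ncf4 and 0.782 for Cybb with Cyba, and 0.0138 for Cybb with Rac1.

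Genes around the oxidase were read from 5 lists. Of 23 activators, the kinases, exchange factors, adaptors and receptors upstream of assembly, 23 were tested and 0 were called in any comparison. Their median log2 fold change lay between −0.027 and 0.042 in the 5 comparisons. Arhgdib, the inhibitor that holds Rac2 in the cytosol, averaged 2566 ± 393 CPM in Control vehicle and 2134 ± 199 CPM in Runx1KO vehicle (log2 fold change −0.27, SE 0.24). Itgb2, the shared chain of the leukocyte integrins, averaged 1508 ± 431 and 1328 ± 252 CPM (−0.18, SE 0.31).

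Of 9 transcription factors that act on oxidase promoters, 9 were tested and 0 called. Spi1, which encodes PU.1, was at 394, 878 and 571 CPM in Control vehicle and 391, 781 and 637 CPM in Runx1KO vehicle (log2 fold change −0.027, SE 0.49). Rela, the NF-kB subunit, was at 155, 221 and 104 CPM in Control vehicle and 189, 250 and 253 CPM in Control LPS (0.53, SE 0.50). Its Runx1KO LPS libraries spanned 98.9 to 508 CPM, low in library 1 and high in library 3 as for Ncf1.

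Of 10 genes of NADPH supply, 9 were tested and 0 called. Taldo1, transaldolase of the pentose phosphate pathway, stayed between 816 and 1197 CPM in all libraries. Nadk, the kinase that makes NADP from NAD, was at 601, 928 and 540 CPM in Control vehicle and 679, 1049 and 1951 CPM in Control LPS (0.83 log2, SE 0.53, edgeR adjusted p = 1). In Runx1KO it was at 684, 804 and 852 CPM under vehicle and, under LPS, at 605, 913 and 2709 CPM (0.85, SE 0.53, edgeR adjusted p = 0.873). In both genotypes Nadk was highest in LPS library 3, as Cyba and Ncf4 were.

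Of 9 genes of the NADPH oxidases of other tissues 0 were tested, and their summed level was at most 0.281 CPM in any library. Noxo1, the organizer of the colon oxidase, had 2 to 9 reads in a group of 3 libraries, and Duox1, of the thyroid and airway oxidase family, 0 to 6.

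Superoxide and peroxide removal held the single call among the lists. Of 23 enzymes 22 were tested; positive log2 fold changes were found for 14 in the Control response to LPS, 16 in the Runx1KO response, 14 in the genotypes with vehicle and 19 in the genotypes with LPS, with medians of 0.16, 0.39, 0.47 and 0.73. Over all genes 46.3, 52.6, 50.3 and 52.6% were positive, with medians of −0.020, 0.028, 0.0025 and 0.031. The call was 1 of 22 in the genotypes with LPS, where 0.921% of all genes were called. Cat, which encodes catalase, the enzyme that breaks down hydrogen peroxide, rose in Runx1KO with LPS, from 14.3, 15.1 and 20.1 CPM to 34.0, 61.6 and 71.3 CPM. All Runx1KO libraries lay above all Control libraries, with a log2 fold change of 1.75 (SE 0.36, edgeR adjusted p = 0.0439). With vehicle it was at 12.8, 11.2 and 7.995 CPM for Control and at 27.8, 31.3 and 14.6 CPM for Runx1KO (1.2, SE 0.35, edgeR adjusted p = 0.190).

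The call of Cat ended by limma-voom (adjusted p = 0.0583), with only the groups compared (0.121) and without the libraries of any 1 number. Among the 12 single libraries it lasted only without Runx1KO vehicle 3 (0.0263) or Runx1KO LPS 1 (0.0197) and ended without each of the others (0.0554 to 0.183); its value stayed between 1.53 and 2.01. Catalase is also abundant in red cells. The erythroid marker genes, of which 0 of 5 were called, had a median log2 fold change of 1.35 in this comparison. They summed to 621, 219 and 183 CPM in Control LPS and to 961, 1522 and 195 CPM in Runx1KO LPS. Runx1KO LPS 3, the highest library of Cat, was thus the lowest of its group in that sum. The Control LPS libraries stood in opposite order for Cat and the sum. With vehicle, the libraries of each genotype stood in the same order for both. The erythroid sum with vehicle was 566, 188 and 143 CPM for Control, then 886, 1361 and 104 CPM for Runx1KO. The part of red cells in the level of Cat was not tested.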

How the data were processed

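RNA-seq of sorted mouse bone marrow neutrophils was taken from the deposited table of raw gene counts, with a column for each library. The authors aligned reads with STAR 2.6.0a to mm9 and, per the submitters' processing notes, counted them with featureCounts. The sources used here do not give the annotation, strand setting or read filters. Columns were matched to samples by title; 0 further columns were left out. No 2 libraries agreed within sampling noise: chi-square over its degrees of freedom was at least 8.09.

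Genes were kept by filterByExpr of edgeR 4.0.16 (R 4.3.3), scaled by TMM and tested by quasi-likelihood F tests of 1 joint model for the 4 groups, with 8 residual degrees of freedom. Each genotype gave 1 LPS contrast and each treatment 1 genotype contrast; the fifth was their interaction, named the difference of responses. Adjusted p is Benjamini-Hochberg over 12917 genes, with a threshold of 0.05. Log2 CPM used a prior count of 2. With 3 against 3 the smallest two-sided p of an exact test is 0.1. The procedure was tested on simulated data. Total counts and the factors of TMM (0.700 to 1.20, lowest in Runx1KO LPS 3) set the depth; reads carry no molecular identifiers.

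Alternatives were other scalings, no filter, a stricter filter (CPM of at least 1 in 3 libraries), the library number as a block, DESeq2 1.42.0, limma-voom (limma 3.58.1), only the groups compared, and leave-outs. Deviations from the group means of same-numbered libraries correlated at 0.394 to 0.667 in Control, 0.374 to 0.479 between genotypes with vehicle and 0.429 to 0.565 with LPS, so the numbers pair the libraries there. In Runx1KO the correlations were 0.314, 0.537 and 0.00575 for numbers 1, 2 and 3. Where genotype and treatment both differed, same-number libraries correlated at 0.304, 0.385 and −0.0535 for Control vehicle with Runx1KO LPS. For Control LPS with Runx1KO vehicle the values were 0.403, 0.319 and 0.175. Libraries of different number and different group correlated at −0.527 to 0.218 (median −0.219). Deviations within a group sum to 0, which lowers these values where same-number values are positive, so they are no independent baseline. Of the same-number values given here, only those numbered 3 within Runx1KO and across both genotype and treatment lay within −0.527 to 0.218.

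The members and gene lists were chosen with earlier results of these data known. Named genes are the members, up to 2 called genes per list, direction and contrast (or the 2 most abundant where a list had no call), the 3 genes most like each member by Pearson r, Runx1, Tnf and Nfkbia; marker genes named beside Hvcn1 and members of marker lists were chosen after their values were seen. Gene lengths, overlaps and coding sequences came from GENCODE M21 (GRCm38) and promoters from RefSeq. The values of 1 marker gene and of 1 gene list are not reported here.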

Additional observations from a re-analysis of the deposited data

How the results depend on the processing

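No member of the oxidase set was called by the main edgeR fit, and Hvcn1 alone changed its side of the threshold in other settings, some of them also edgeR fits, as given in the report. With the replicate block no other member changed its call. With library size alone the all-gene median went from −0.020 to −0.14 (LPS in Control), from 0.028 to −0.28 (LPS in Runx1KO) and from 0.048 to −0.15 (their difference). With 3 libraries a group and log2 standard errors of 0.27 to 0.66 for the members (up to 0.86 in the difference of responses), changes below about the width of the intervals given cannot be seen. The cause of the shifts below was not tested.

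Genes called in the genotype comparison with vehicle were 123, and 315 with the replicate block, 386 by DESeq2, 80 with only the groups compared and 1 to 172 in leave-outs; leaving out any single vehicle library gave 47 to 70. With LPS they were 119, and 302 with the block, 401 by DESeq2, 26 with only the groups compared and 3 to 136 in leave-outs; leaving out Control LPS 1, 2 or 3 or Runx1KO LPS 2 or 3 gave 68, 62, 49, 53 and 64. Leaving out the libraries numbered 1, 2 or 3 gave 2, 1 and 6 with vehicle and 3, 4 and 25 with LPS. DESeq2 called 1 gene for LPS in Runx1KO.

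The sign turned with library size alone for Cybb (−0.0082), Ncf1 (−0.13) and Rac2 (−0.061) between genotypes with LPS, and for Ncf1 (−0.27), Rac2 (−5.7e-05) and Rac1 (−0.13) in the difference of responses. The difference for Ncf1 also turned without the filter (−0.019), with the block (−0.11) and by limma-voom (−0.18), Cyba with vehicle turned with the block (−0.021), and Ncf1 with LPS by limma-voom (−0.076). In leave-outs Rac1 in the Runx1KO response ran from −0.27 to 0.16. Between genotypes with vehicle the ranges were −0.12 to 0.18 for Cyba, −0.30 to 0.53 for Ncf1, −0.016 to 0.17 for Ncf4, −0.32 to 0.041 for Rac2 and −0.17 to 0.26 for Rac1. With LPS they were −0.086 to 0.45 for Cybb, −0.025 to 0.76 for Cyba, −0.35 to 0.52 for Ncf1, −0.10 to 0.71 for Ncf4 and −0.10 to 0.26 for Rac2, each lowest without Runx1KO LPS 3. In the difference they were −0.030 to 0.76 for Cyba, −0.45 to 0.47 for Ncf1, −0.17 to 0.61 for Ncf4 and −0.097 to 0.33 for Rac1.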
